A study of Mus musculus with 2 samples.

Results

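The sites described here are the m6A sites of mouse chromosome 17 in control testis. They were taken by one rule, chromosome 17 in the first column of both deposited site lists, and lines with the same start and strand were merged. Replicate 1 held 377 such sites out of 7019 on all chromosomes, and replicate 2 held 399 out of 7182. Together they gave 678 distinct positions of 12516. Each site is an interval of 5 nt on the mm9 build, and coordinates are 1-based. A site below is an entry of 1 replicate, and a position is a start and strand found in either. The RNA was mRNA of control testes at postnatal day 12, mapped by miCLIP, in which an antibody to m6A is crosslinked to RNA and the crosslink leaves a mark in the cDNA. The labels name B6D2F1 (C57BL/6×DBA2), DBA2 and C57BL6 mice for the study without saying which gave these testes, and give the controls no genotype. The 2 replicates form the only group, nothing says whether they came from separate animals, and no knockout sample was analysed here. Neither list gives a score or a read count, so the depth behind each site is unknown.

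N6-methyladenosine is written into nascent RNA by a methyltransferase complex built on METTL3 and METTL14, and reader proteins of the YTH family bind it and act on the splicing, translation and decay of the RNA. On day 12, mouse testis holds Sertoli and other somatic cells, spermatogonia and the first germ cells in meiotic prophase. Chromosome 17 carries the t complex, a proximal region known for variants that distort transmission through males, and within it the H2 major histocompatibility complex (MHC). The MHC groups the class I and class II genes, whose products present peptides to T cells, with many genes of unrelated function. In RefSeq's gene table for GRCm38, all 50 symbols that begin with H2- lie on chromosome 17. That table describes another build than mm9, so no position was assigned to a gene, and whether the stretch from 33 to 37 Mb holds the MHC was not checked against gene positions.

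Sites were concentrated in a few parts of the chromosome, and the stretch from 33 to 37 Mb was the densest. It held 91 sites in replicate 1 and 82 in replicate 2, which was 24.1% of the chromosome's sites (95% Wilson interval 20.1 to 28.7%) and 20.6% (16.9 to 24.8%). The stretch makes up 4.20% of the length up to the last site. Its density per Mb was 22.8 sites (replicate 1) and 20.5 sites (replicate 2), a mean of 21.6 ± 1.59 (SD, n = 2). The rest of the chromosome had 3.14 and 3.48 sites per Mb, a mean of 3.31 ± 0.24 (SD, n = 2). Its length includes the bases before the first site, which starts at 3197338. The ratio was 7.25 in replicate 1 and 5.90 in replicate 2. The stretch was proposed with its high count known, so its density is a description and was not tested. Among 2577 windows of 4 Mb in 1 Mb steps over the numbered chromosomes, X and Y, none held more than its 147 positions. The median window held 13 positions. The next fullest window that did not overlap it also lay on chromosome 17, from 23000001 to 27000000, with 66 sites in replicate 1, 70 in replicate 2 and 114 positions. Densities per Mb take no account of how many genes a stretch holds or how strongly they are transcribed.

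The 8 fullest bins of 1 Mb fell into those 2 regions and 2 places beyond them. The bin from 35000001 to 36000000 came first with 59 positions, from 33 sites in replicate 1 and 31 in replicate 2. It was followed by the bin from 34000001 to 35000000, with 48 positions, 32 sites in replicate 1 and 29 in replicate 2. The bin from 36000001 to 37000000 had 23 positions, from 15 sites in replicate 1 and 10 in replicate 2. In the second region, the bin from 23000001 to 24000000 gave 37 positions, from 26 sites in replicate 1 and 18 in replicate 2. Its neighbour from 24000001 to 25000000 went the other way, with 13 sites in replicate 1 and 25 in replicate 2 (29 positions). The bin from 25000001 to 26000000 had 16 and 21 sites (31 positions). Farther along, the bin from 56000001 to 57000000 had 19 and 14 sites (29 positions), and that from 46000001 to 47000000 had 12 and 16 sites (27 positions). These 8 bins held 41.7% of all positions of the chromosome. Of 96 bins up to the last site, 62 held a site, with a median of 7 positions, and 34 held none in either replicate. The empty bins include those before the first site, which starts at 3197338.

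**Figure D1:**
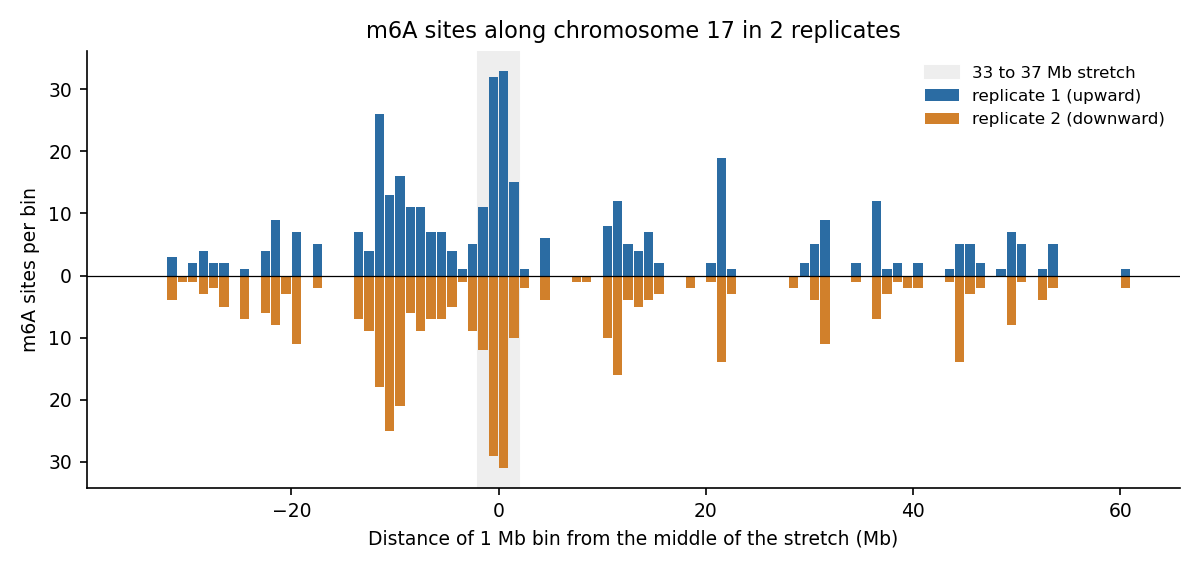
Number of m6A sites per 1 Mb bin of chromosome 17, replicate 1 drawn upward and replicate 2 downward, against the distance of the bin from the middle of the 33 to 37 Mb stretch in Mb. The shaded stretch holds the tallest bars of both replicates, 33 and 31 sites, and the second region, 23 to 27 Mb, lies left of it.

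The bin counts of the replicates varied together. Over the 96 bins, each of which covers the same genes in both replicates, Pearson's r was 0.912 and Spearman's rho 0.897. With the positions found in both replicates left out, these were 0.840 and 0.820. Outside the stretch, over 92 bins and with all positions, r was 0.854 and rho 0.883. Both sets of bins include the 34 that were empty in both replicates. No correlation was taken over the 62 bins with a site alone. The largest differences were 8 sites more in replicate 1, at 23000001 to 24000000, and 12 sites more in replicate 2, at 24000001 to 25000000. Only replicate 1 had sites in 2 bins, and only replicate 2 in 7.

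Inside the stretch, sites gathered near particular places on both strands. Of its 40 bins of 100 kb, 27 held a position and 13 held none, and the 4 fullest held 40.8% of the 147 positions. The fullest, from 35900001 to 36000000, combined 11 sites of replicate 1 with 10 of replicate 2, at 12 positions on the plus strand and 6 on the minus strand. Each replicate had 11 sites from 34000001 to 34100000, at 13 positions on the plus strand and 3 on the minus strand. The bin from 36000001 to 36100000 had 9 and 5 sites, split 7 to 6 between the strands. The bin from 35200001 to 35300000 had 8 and 6 sites, with 3 positions on the plus strand and 10 on the minus strand. Some bins carried 1 strand only: the 8 positions from 34200001 to 34300000 and the 8 from 35800001 to 35900000 were all on the minus strand. In all, 11 bins had both strands, 8 only plus and 8 only minus. The longest gap, 599052 nt, lay between 36395973 and 36995026.

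**Figure D2:**
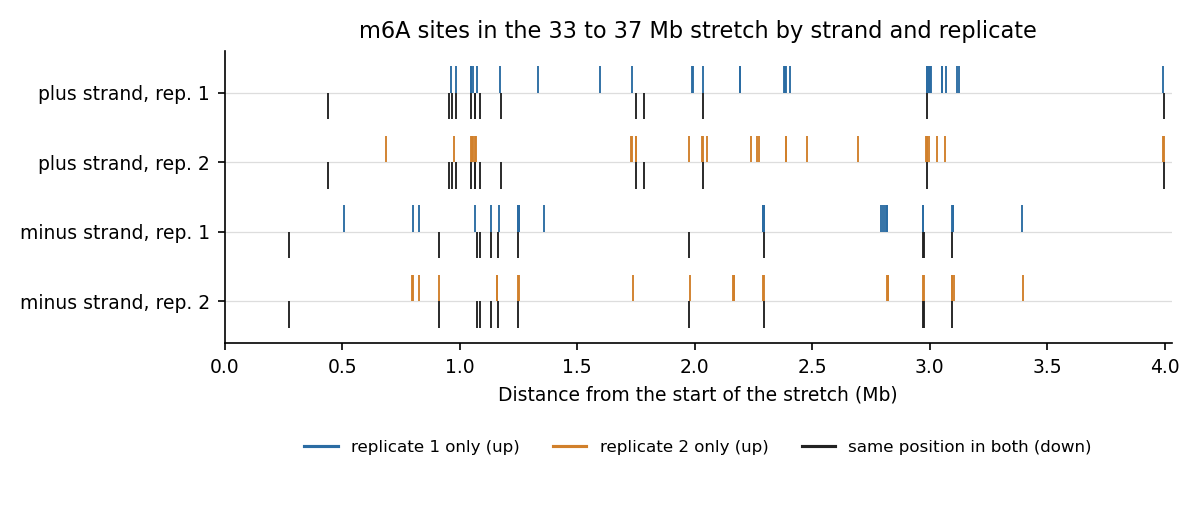
m6A sites of the 33 to 37 Mb stretch against the distance from its start in Mb, in a row for each strand and replicate. Marks above a line are sites of that replicate only and marks below it are the 26 positions found in both; sites a few kb apart merge into 1 mark. Most of the marks below the lines lie in the left part, where 19 of the 26 fall.

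Sharing of positions between replicates did not differ detectably between the stretch and the rest of the chromosome. Of its 147 positions, 26 were in both lists, 65 in replicate 1 only and 56 in replicate 2 only, so 17.7% were shared (95% Wilson interval 12.4 to 24.7%). On all chromosomes 13.5% of positions were shared. The rest of chromosome 17 had 72 shared of 531 positions, or 13.6% (10.9 to 16.7%). The difference of 4.13 percentage points (95% Newcombe interval -2.07 to 11.6) did not pass (Fisher's exact test, 2-sided, p = 0.233, adjusted p = 0.62 over the 8 main Fisher tests). With starts matched within 50 nt it was 0.72 points, 18.5% against 17.8%. With the sites of replicate 2 as the denominator it was 8.99 points (exact test, adjusted p = 0.301). Nor did chromosome 17 differ detectably from the other numbered chromosomes, X and Y: 98 of 678 positions against 1584 of 11819, 14.5% against 13.4% (difference 1.05 points, -1.47 to 3.96; Fisher's exact test, 2-sided, p = 0.419, adjusted p = 0.737). Per replicate, the stretch shared 28.6% of its replicate 1 sites and 31.7% of its replicate 2 sites. The rest of the chromosome shared 25.2% and 22.7%. These tests treat positions as independent, which positions on 1 transcript are not, and they compare places within the same 2 libraries.

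The count of shared positions varied along the stretch, as it did between bins of the rest of the chromosome. From 33 to 34 Mb, 6 of 17 positions were shared. From 34 to 35 Mb it was 13 of 48. The following Mb, the fullest of the chromosome, had 5 of 59, and from 36 to 37 Mb it was 2 of 23. Joined at the middle, the left side had 19 of 65 (29.2%, 95% Wilson interval 19.6 to 41.2%) and the right side 7 of 82 (8.54%, 4.20 to 16.6%). The replicates had similar totals on both sides, with 43 and 41 sites on the left and 48 and 41 on the right. This division was chosen after its values were seen and was not tested, so the 2 intervals do not stand for a test. Bins of 1 Mb outside the stretch varied too. From 24000001 to 25000000, 9 of 29 positions were shared. From 26000001 to 27000000 it was 0 of 17, and from 46000001 to 47000000 it was 1 of 27. The shared positions on the left included 4 with several lines in a list, centred at 33966630 and 34050298 on the plus strand and at 34075868 and 34133254 on the minus strand. On the right no shared position was repeated.

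Same-strand positions were joined into a group wherever the step to the next was no more than 1 kb, both replicates together. Without an annotation, whether the positions of a group lie on 1 transcript was not checked. Chromosome 17 had 443 groups, of which 322 were single positions. In the stretch, 26 of 97 groups held more than 1 position, 26.8% (95% Wilson interval 18.998 to 36.4%), against 95 of 346 in the rest, 27.5% (23.02 to 32.4%). The share on all chromosomes was 24.4%. The difference of -0.65 points (-9.89 to 9.90) did not pass (Fisher's exact test, 2-sided, p = 1, adjusted p = 1). The stretch was thus denser in groups, with 97 in 4 Mb, while the share of groups with several positions did not differ detectably. Both replicates had a site in 34 of its 97 groups, 35.1% (26.3 to 45.0%), and in 107 of 346 in the rest, 30.9% (26.3 to 35.98%), where all chromosomes gave 27.3%. That difference did not pass either (4.13 points, -5.99 to 15.1; Fisher's exact test, 2-sided, p = 0.461, adjusted p = 0.737). Among the 34 groups of the stretch with sites of both replicates, 9 had no position in common. In the rest it was 42 of 107, and on the numbered chromosomes, X and Y it was 887 of 2417.

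The largest group of the chromosome, and the largest of any chromosome, lay on the plus strand from 23952380 to 23957785, outside the stretch. It held 27 positions, 19 of replicate 1 and 11 of replicate 2, and 3 in both, centred at 23952548, 23955042 and 23956766. The 3 largest groups of the stretch ranked next. A group of 8 positions on the minus strand, from 35292571 to 35293700, had 6 sites of replicate 1 and 3 of replicate 2, and 1 position in both, at 35293635. Another on the minus strand, from 34249476 to 34251960, had 7 positions, 5 sites of replicate 1, 3 of replicate 2 and 1 in both, at 34249913. On the plus strand, the group from 35989673 to 35991193 had the same counts, with the common position at 35989731. In each of these 4 groups replicate 1 had more sites and most positions came from 1 replicate only.

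The 6 other groups among the 10 largest lay outside the stretch. On the plus strand, the group from 3197338 to 3197950 had 3 and 4 sites in replicates 1 and 2 and 1 common position. Among those on the minus strand, the group from 45706511 to 45707697 had 2 and 5 sites and 1 common position. The group from 49595598 to 49597178 had 5 and 1 sites, and that from 84584572 to 84585415 had 3 and 3, and neither had a common position. The group from 88385395 to 88386173 on the plus strand had 4 and 1 sites and none in common. The group from 39980005 to 39981905 on the plus strand stood at the other end, since all 3 replicate 2 sites were among the 5 of replicate 1. A further plus strand position at 39985128 was on 2 lines of both lists, which made 4 shared of the 6 positions in that bin of 1 Mb. Whether these 6 positions lie in messenger RNA or in a repeated gene such as one for ribosomal RNA was not checked, since no mm9 annotation was used.

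**Figure D3:**
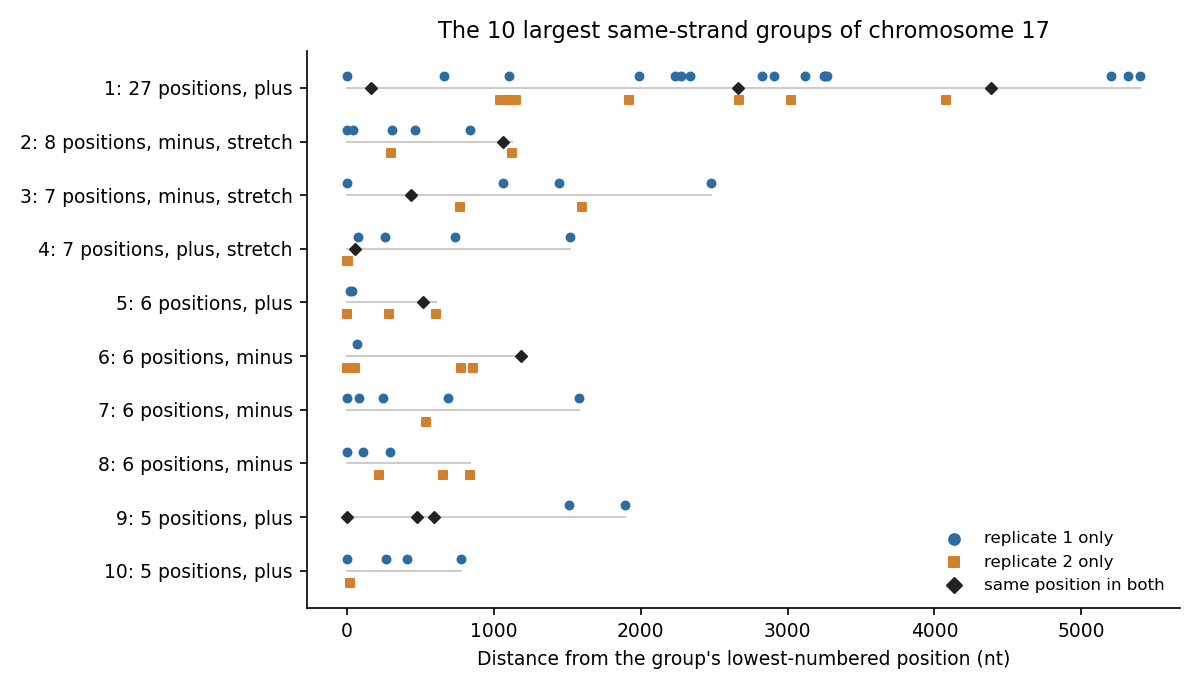
Positions of the 10 largest same-strand groups of chromosome 17, against the distance in nt from the lowest-numbered position of the group. Circles are positions of replicate 1 only, squares of replicate 2 only and diamonds of both; the first group holds 27 positions, and diamonds are at most 3 in any group.

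The other groups of the stretch were small. A group of 4 positions on the minus strand, from 35971412 to 35972669, had 3 sites of replicate 1, 2 of replicate 2 and 1 in both, at 35971414. Of 6 groups with 3 positions, that from 34065559 to 34066006 on the plus strand had 2 common positions, the most of any group in the stretch, at 34065561 and 34066004. The group from 34749716 to 34750243 on the plus strand had 1, at 34750100. The remaining 4, which start at 34048491, 35389749, 35818619 and 36995026, had sites of both replicates and none in common. On the whole chromosome, 5 groups had 2 or more common positions. The tightest of them, on the minus strand from 24162035 to 24162055, held 3 positions within 21 nt, and both replicates had all 3.

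The frequency of close neighbours did not differ detectably between the stretch and the rest. A position with a same-strand neighbour within 1 kb is by construction a position in a group of more than 1. The counts at 1 kb therefore restate the groups above by position and are not a separate result. A neighbour within 1 kb on the same strand, from either replicate, was present for 76 of 147 positions in the stretch, 51.7% (95% Wilson interval 43.7 to 59.6%), and for 280 of 531 in the rest, 52.7% (48.5 to 56.9%). All chromosomes together gave 46.5%. The difference of -1.03 points (-10.1 to 7.97) did not pass (Fisher's exact test, 2-sided, p = 0.852, adjusted p = 1). On the opposite strand 2.72% of positions in the stretch and 2.07% in the rest had such a neighbour, against 1.03% on the other chromosomes. At closer range the stretch was lower, with 22 of 147 positions having a neighbour within 100 nt against 124 of 531, 14.97% against 23.4%, but that difference did not pass after adjustment (Fisher's exact test, 2-sided, p = 0.031, adjusted p = 0.124). The rest includes the largest group, of 27 positions, and the comparison within 100 nt was not repeated without it. The median distance between consecutive positions of 1 strand was 3024 nt in the stretch and 12131 nt in the rest.

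Counted by position, chromosome 17 as a whole had more such neighbours than the other chromosomes, 356 of 678 against 5448 of 11819. The share of chromosome 17 was 52.5% against 46.1% (difference 6.41 points, 2.54 to 10.3, Fisher's exact test, 2-sided, p = 0.00116, adjusted p = 0.00931). Its share was the highest among the 19 autosomes and X, whose other members ranged from 39.9% to 51.1%. That rank rests on the group of 27 positions: without it the share was 50.5%, below chromosome 18 at 51.05% and chromosome 9 at 51.03%. The call did not hold within 100 nt, where 21.5% of positions against 20.9% had a neighbour (Fisher's exact test, 2-sided, adjusted p = 1). It did not hold with groups as the unit, where 27.3% against 24.2% of groups had more than 1 position (Fisher's exact test, 2-sided, adjusted p = 0.56). Without the group of 27 positions the difference was 4.44 points (exact test, adjusted p = 0.234). In replicate 1 alone it was 7.26 points and passed (exact test, adjusted p = 0.0364), and in replicate 2 alone it was 3.27 points and did not (exact test, adjusted p = 0.62). The tests on positions treat them as independent, which positions that are each other's neighbours are not. The chromosome was chosen with earlier results of these data known, so these p-values do not support a trait particular to it. Chromosome 17 was also dense, with 7.12 positions per Mb (rank 3 among the 19 autosomes and X). On the opposite strand 2.21% of its positions had a neighbour within 1 kb, against 1.03% on the other chromosomes. Whether density accounts for the excess was not tested.

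Plus strand positions were in the minority outside the stretch. Plus strand positions numbered 79 of 147 in the stretch, 53.7% (95% Wilson interval 45.7 to 61.6%), and 239 of 531 in the rest, 45.0% (40.8 to 49.3%), where all chromosomes gave 51.6%. In replicate 1 the shares were 52.7% and 45.5%, and in replicate 2 they were 54.9% and 42.6%. The difference of 8.73 points (-0.374 to 17.6) did not pass (Fisher's exact test, 2-sided, p = 0.0625, adjusted p = 0.25). It was 2.87 points with limits of 32 and 38 Mb, 11.6 over groups (exact test, p = 0.0499, adjusted p = 0.2) and 11.7 without the group of 27 positions (exact test, p = 0.0142, adjusted p = 0.0567). Positions of 1 group share their strand by definition, so they are not independent, and the intervals and tests on positions take no account of this. Single bins leaned far to 1 strand. Of 40 bins of 1 Mb with at least 5 positions, 9 had all of them on 1 strand, 4 on plus and 5 on minus. Some of these bins were mostly 1 same-strand group. The 6 positions from 3000001 to 4000000 were 1 group, and 5 of the 6 from 39000001 to 40000000 were another. No such count is given for the other chromosomes. All 12 positions from 21000001 to 22000000 were on the plus strand, and all 13 from 32000001 to 33000000, just before the stretch, were on the minus strand.

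**Figure D4:**
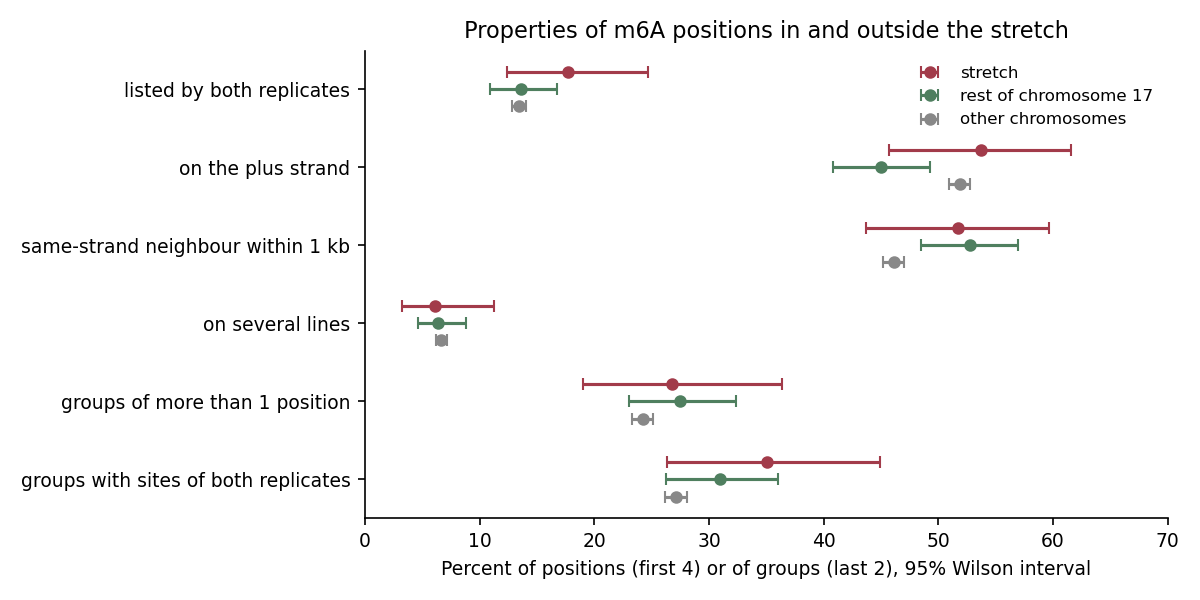
Percent of positions (upper 4 rows) or of same-strand groups (lower 2 rows) with each property in the stretch, in the rest of chromosome 17 and on the other chromosomes; bars are 95% Wilson intervals. The intervals of the stretch and of the rest overlap in every row.

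The lists repeat some positions over several lines, and no field says why. In the stretch these were 9 of 147, 6.12% (95% Wilson interval 3.25 to 11.2%), and in the rest 34 of 531, 6.40% (4.62 to 8.81%), where all chromosomes gave 6.63%. The difference of -0.281 points (-4.03 to 5.13) did not pass (Fisher's exact test, 2-sided, p = 1, adjusted p = 1). On chromosome 17, 17 of the 43 repeated positions were shared, 39.5% (26.4 to 54.4%), and 81 of 635 positions on 1 line, 12.8% (10.4 to 15.6%). On all chromosomes these shares were 35.2% and 11.9%. No position of the stretch was on more than 2 lines. The chromosome had 3 positions on 3 lines of a list. That at 88665675 on the minus strand was on 3 lines in replicate 1 and 2 in replicate 2. That at 24162037 on the minus strand, in the tight group of 3, was on 1 line in replicate 1 and 3 in replicate 2. The third, at 23957699 on the plus strand in the largest group, was on 3 lines in replicate 1 and absent from the list of replicate 2.

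Some sites found by 1 replicate only had a site of the other replicate nearby on the same strand. In the stretch this held within 1 kb for 27 of 65 such sites of replicate 1, 41.5% (95% Wilson interval 30.4 to 53.7%), and for 22 of 56 of replicate 2, 39.3% (27.6 to 52.4%). In the rest the counts were 105 of 214, 49.1% (42.4 to 55.7%), and 86 of 245, 35.1% (29.4 to 41.3%). On the opposite strand 1 site of each replicate in the stretch had such a neighbour, as did 4 of replicate 1 and 3 of replicate 2 in the rest. These counts were made on chromosome 17 only, so no share over all chromosomes stands beside them. The counts of the rest include the group of 27 positions, with 16 sites of replicate 1 only and 8 of replicate 2 only. What this group adds to the higher share of replicate 1 was not tested.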

How the data were processed

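The submitters' processing notes name BWA 0.7.10, CASAVA and the mm9 build. How sites were called and filtered is not given in the sources used here. The deposited lists hold positions only, with an asterisk as name and score. Lines of chromosome 17 were read from both lists and merged by start and strand. Both replicates were assigned from their titles. Groups were assigned to the stretch by their first position. Shares carry 95% Wilson intervals and differences Newcombe intervals, for counting error only. The 8 main Fisher's exact tests were 2-sided and adjusted by Benjamini-Hochberg, with 0.05 as the threshold. For an alternative, its p took the place of the main one among the 8, so the alternatives were not adjusted for their own number. The regions named are the 8 fullest bins of 1 Mb, the 10 largest groups of the chromosome and of the stretch, and positions on at least 3 lines; others were named after their values were seen. The chromosome, the stretch and these rules were chosen with earlier results of these data known. The overlap, group and neighbour code was tested on simulated data. Software was SciPy 1.17.1, statsmodels 0.14.6, pandas 2.3.3, NumPy 2.4.6 and matplotlib 3.10.9 under Python 3.11.15. Gene names and sequences need an mm9 reference and were not used here.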

Additional observations from a re-analysis of the deposited data

How the results depend on the processing

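Of 59 alternative values, 45 kept their direction and their side of the threshold or moved by no more than the allowed margin (1.5 times for a count, 1 SD or the 95% interval for a share); 4 lost a call, 7 changed sign and 3 moved. Not all of the 45 were free to change. With 2 replicates, leaving 1 out cannot move the stretch's share of sites by 1 SD. Ignoring strand returned the main values of sharing unchanged. The sign changes concern differences that did not pass in the first place. Those that leave out the largest group or the stretch, or take groups as the unit for neighbours of the whole chromosome, were chosen after seeing the data. The excess of neighbours on chromosome 17, 6.41 points, was 0.602 within 100 nt, 4.44 without the largest group, 3.11 over groups, and 3.27 to 7.26 with 1 replicate left out. For the stretch against the rest, the neighbour difference became 5.35 with limits of 34 and 36 Mb and 1.502 without the largest group. The difference in repeated positions became 0.535 with limits of 32 and 38 Mb and 0.104 for lines of replicate 2. That in groups of several positions became 2.25 with limits of 34 and 36 Mb, 4.67 with gaps of at most 2 kb, and -0.0868 to 0.0141 with 1 replicate left out. The stretch's share of sites, 22.3%, was 26.5% among shared positions and 16.1% from 34 to 36 Mb, and sharing on the chromosome rose from 14.5% to 17.9% when 50 nt were allowed. The cause of these moves was not tested. No paired analysis was possible because both samples belong to the same group.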

Other observations

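Positions on opposite strands within 1 kb of each other formed 9 pairs on chromosome 17, of which 3 lay in the stretch. All 3 involved the minus strand position at 34066195, which faces the plus strand group from 34065559 to 34066006 at distances of 191, 462 and 634 nt. The nearest pair of the chromosome, 42 nt apart, was at 24733389 on the plus strand and 24733431 on the minus strand.

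Large parts of the chromosome had no site in either replicate. The longest site-free runs were 6.46 Mb between 88665677 and 95124014 and 6.29 Mb between 57162708 and 63453871. On the same strand, no consecutive positions of chromosome 17 were 1 to 3 nt apart and 4 pairs were 4 nt apart. In all, 20 pairs were 4 to 10 nt apart, 2 of them in the stretch. Neither these counts nor the pairs on opposite strands were made for the other chromosomes. They are therefore not shown to be particular to chromosome 17.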
